A study of Arabidopsis thaliana with 47 samples.

Results

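The lincomycin-dependent light response at 24 h compares changes seen after 24 h of brighter light. It is the change in seedlings grown on lincomycin minus the change in seedlings grown without it. It was computed for every probe set as (Lin_24h minus Lin_0h) minus (noLin_24h minus noLin_0h), from 15 of the 47 arrays of the series. Lin_24h had 4 arrays, Lin_0h 4 arrays (numbers 5 to 8), noLin_24h 3 arrays (numbers 1 to 3) and noLin_0h 4 arrays (numbers 5 to 8). All 4 groups were wild-type Col-0 seedlings of Arabidopsis thaliana, labelled 7 days old, on medium with 2% sucrose. They had grown for 6 days in dim blue plus red light of 0.5 µmol m-2 s-1. The Lin groups had 0.5 mM lincomycin in the medium throughout, and the noLin groups had none. For the 24 h groups the same light was raised to 60 µmol m-2 s-1 and kept there for 24 h, and the 0 h groups were collected before the rise. No group was kept in dim light for those 24 h, so brighter light and 24 h of further growth cannot be told apart. Where light is said below to raise or lower a gene, that limit holds. Each array came from a pool of 50 to 100 whole seedlings, and replicates were grown separately according to the study's design.

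Lincomycin blocks translation on plastid ribosomes, so seedlings that germinate on it cannot build normal chloroplasts. Plants without functional plastids repress many nuclear genes for photosynthesis, which is known as retrograde signalling from the plastid to the nucleus. Light itself acts on the nucleus through phytochromes, cryptochromes and phototropins, and also through the sugars that photosynthesis makes. Whole seedlings mix cell types, so fewer cells of a type and less RNA per cell cannot be told apart in any value below.

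Values are log2(signal + 1) of Affymetrix ATH1 arrays, and differences between them are on the log2 scale, where 1 is a 2-fold change. A response is the 24 h group minus the 0 h group of the same treatment. The difference is the response with lincomycin minus the response without it, so a negative one means that light raised the gene less, or lowered it more, on lincomycin. Of 22810 probe sets, 22746 that are not controls were tested with limma, and a call is a Benjamini-Hochberg adjusted p under 0.05. The 15 arrays had median signals of 179.5 to 218.1 and median rank correlations with the other arrays of 0.914 to 0.943. Array 4 of noLin_24h stood apart, with a rank correlation of 0.619 and a first quartile of 162.8, against 40.5 to 54.4 on the 15 arrays, and was left out. With that array put back, 3296 probe sets were called in the difference, and 3292 of these were called with the same sign without it. Of 137 named genes called here, 37 lost their call with that array and none changed sign. With all 0 h arrays, numbered 1 to 8, 26 of the 137 lost their call and 1 changed sign. The arrays' own quality probes for GAPDH read 0.62 to 1.04 higher (log2) at the 3' than at the 5' end in Lin_24h, and 0.89 to 1.3 in Lin_0h. These values were 0.94 to 1.11 in noLin_24h and 1.36 to 1.58 in noLin_0h, and 6.31 on array 4 of noLin_24h. For actin the means were 4.34 in Lin_24h, 4.55 in Lin_0h, 4.79 in noLin_24h and 4.70 in noLin_0h. For ubiquitin they were 1.78, 1.65, 2.01 and 1.85 in that order. Array 4 of noLin_24h read 3.21 for actin, below all 15 arrays, and 3.44 for ubiquitin, above all 15. The part of these readings in the results was not tested.

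The response to light was smaller on lincomycin for most of the probe sets whose responses differed. The difference was called for 6383 of 22746 probe sets (28.1%), 3298 of them higher (14.5%) and 3085 lower (13.6%) with lincomycin. It reached 1 or more in size for 2978 of them. The response with lincomycin was called for 6579 probe sets (28.9%), of which 2852 rose (12.5%) and 3727 fell (16.4%). The response without lincomycin was called for 9870 (43.4%), of which 4353 rose (19.1%) and 5517 fell (24.3%). The median size of the response over all probe sets was 0.36 with lincomycin and 0.54 without. Across probe sets, which are not independent replicates, both responses correlated with r = 0.39 and rho = 0.35. They share no arrays. The median difference over all probe sets was 0.02.

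The called probe sets were sorted by which of the 2 responses were themselves called. A response was lost in 3070 of them (13.5% of those tested), where light changed the gene without lincomycin and the response with lincomycin was not called. It was weakened in 1372 (6.03%), which kept a called response of the same direction and smaller size. It was reversed in 712 (3.13%), where light moved the gene one way with lincomycin and the other way without. It was enhanced in 176 (0.774%) and gained in 889 (3.91%), where only the response with lincomycin was called. In the remaining 164 (0.721%) neither response was called. Lost responses were 1313 rises (5.77%) and 1757 falls (7.72%), and weakened ones 675 rises and 697 falls, named by their direction without lincomycin. Among reversed responses, 428 had been rises and 284 falls without lincomycin. A response that was not called is not shown to be 0, and some 95% intervals of uncalled responses leave 0 out.

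**Figure D1:**
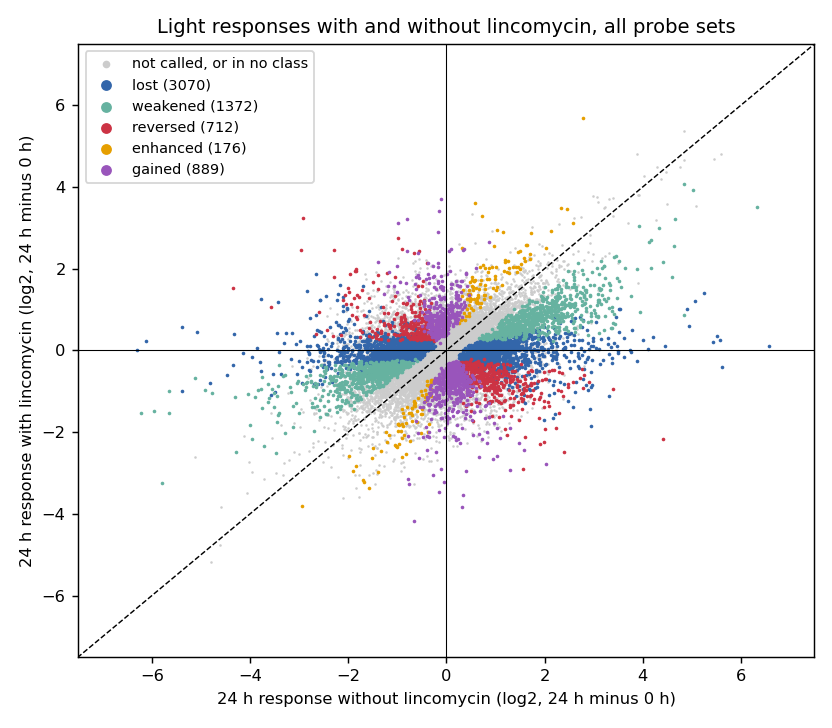
Response to 24 h of brighter light with lincomycin (vertical axis) against the response without it (horizontal axis), both as log2 of the 24 h minus the 0 h group, one point per probe set. Colours give the class of each called difference, and points on the dashed line had equal responses. The 3070 lost responses lie along the horizontal axis and the 712 reversed ones in the upper left and lower right.

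The gene groups below are described by counts, since their members were chosen with earlier results of these data known. In these counts a gene rose or fell where that response was called. A gene with several probe sets is represented by its brightest one, and near-identical family members can share a probe set's signal. Probe sets of several genes were left out, and counts cover only the listed genes with a probe set of their own. Over all probe sets, 14.5% were called higher and 13.6% lower in the difference, and each group is to be read against these shares. The calls over all probe sets also became fewer under other settings, from 3298 higher and 3085 lower. They were 1554 and 1742 with array 4 of noLin_24h put back, and 2185 and 2173 with the 0 h arrays numbered 1 to 8. Group counts under those settings are to be read against these numbers.

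**Figure D2:**
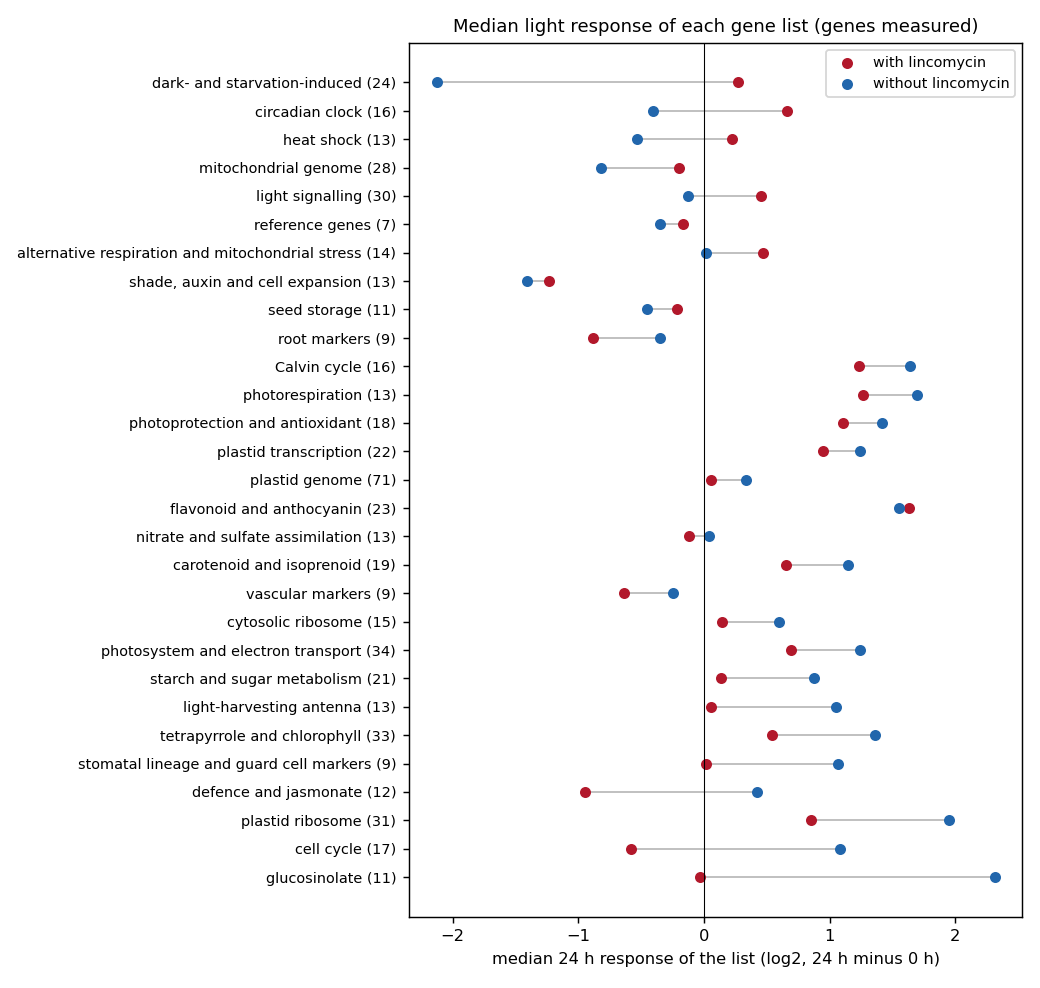
Median response to 24 h of light of each gene list, with lincomycin (red) and without (blue), as log2 of the 24 h minus the 0 h group, with the number of genes measured in brackets. Lists are ordered by their median difference. Dark- and starvation-induced genes fell without lincomycin (median -2.13) and had a median of 0.27 with it, while cell cycle genes had medians of -0.58 with and 1.09 without.

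Genes that plants switch on in darkness and under sugar shortage mostly fell in light without lincomycin (22 of 24 called). With lincomycin no fall was called, and 8 rises were. Of 24 measured, 23 were called higher in the difference and none was called lower, with a median difference of 2.39 beside 0.02 over all probe sets. Their median response was 0.27 with lincomycin and -2.13 without. Levels with minus without lincomycin had a median of -1.18 at 0 h and 1.31 at 24 h. The classes were 15 lost (7.72% of all probe sets were lost falls), 6 reversed and 2 gained. The exception was DIN11, another dark-induced gene, with a difference of 0.89 ± 1.2 (SE, adjusted p = 0.652), and signals at or below the arrays' first quartile in Lin_24h and noLin_24h.

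SEN1 (AT4G35770), a senescence-associated and dark-induced gene, led this group. Its log2 signals were 13.06, 12.78, 13.15 and 12.36 in Lin_24h and 12.29, 12.65, 12.73 and 12.76 in Lin_0h. They were 8.21, 8.44 and 8.65 in noLin_24h and 14.34, 14.62, 14.63 and 14.66 in noLin_0h. The arrays with lincomycin lay between both groups without it, and the groups without it did not overlap. The response of SEN1 was 0.23 with lincomycin (95% interval -0.15 to 0.60) and -6.12 ± 0.19 without (SE), a difference of 6.35 ± 0.26 (limma, adjusted p = 5.29e-08).

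BCAT-2 (AT1G10070), a branched-chain amino acid aminotransferase of mitochondria, starts the breakdown of leucine, isoleucine and valine. Its log2 signals were 11.06, 11.32, 11.50 and 10.63 in Lin_24h and 10.71, 10.99, 11.26 and 11.51 in Lin_0h. They were 6.37, 6.61 and 6.49 in noLin_24h and 12.93, 12.70, 12.76 and 12.78 in noLin_0h. Both lincomycin groups overlapped, and the fall without lincomycin was larger than any spread within a group. The response with lincomycin was 0.01 (95% interval -0.40 to 0.42), and the difference was 6.32 ± 0.28 (SE, limma adjusted p = 1.17e-07). ASN1 (AT3G47340), an asparagine synthetase induced in the dark, had a response of 0.58 with lincomycin (adjusted p = 0.0744, 95% interval 0.09 to 1.06) and fell by 5.39 without, a difference of 5.97 ± 0.33 (SE, adjusted p = 2.89e-07). MCCA (AT1G03090), a subunit of the methylcrotonyl-CoA carboxylase of leucine breakdown, had a difference of 3.93 ± 0.20 (SE, adjusted p = 2.34e-07).

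The other lost falls ranked high by the fitted difference were AT4G25580 and AT2G23110. With the dim group set to its floor, AT2G23110 had a difference of 3.04, below the 3.93 of MCCA. AT4G25580 had log2 signals of 8.23 to 8.79 in Lin_24h and 7.88 to 8.45 in Lin_0h, against 10.11 to 10.67 in noLin_0h. In noLin_24h its mean was at or below the first quartile, so its fall without lincomycin is given as at least 4.84 on the log2 scale. For AT2G23110 that fall was at least 2.96. Both differences were called, with adjusted p of 1.47e-06 for AT4G25580 and 0.000311 for AT2G23110.

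Weakened falls were led by RAB18 (AT5G66400), a dehydrin that abscisic acid and drought induce. It had log2 signals of 9.58, 9.88, 9.78 and 9.69 in Lin_24h and 10.69, 10.67, 10.94 and 10.56 in Lin_0h. The values were 7.82, 7.58 and 7.69 in noLin_24h and 13.56, 13.49, 13.20 and 13.20 in noLin_0h. RAB18 fell in both treatments, by 0.98 ± 0.12 with lincomycin and by 5.66 ± 0.13 without (SE), and the difference was 4.68 ± 0.17 (adjusted p = 3.47e-08). AT1G19530 followed with a difference of 4.67 ± 0.35 (SE, adjusted p = 1.73e-06). AT5G39520, whose noLin_24h mean was at or below the first quartile, fell by 1.48 with lincomycin and by at least 5.24 without.

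Genes of a seed protein, an amino acid enzyme and a copper protein went up in light on lincomycin where light took them down without it, and they had the largest reversed falls. PAP85 (AT3G22640), which encodes a vicilin-like seed storage protein, had log2 signals of 9.13, 8.69, 8.91 and 8.55 in Lin_24h and 5.08, 5.16, 6.33 and 5.78 in Lin_0h. It had 5.81, 5.80 and 6.15 in noLin_24h and 8.63, 9.05, 9.56 and 8.15 in noLin_0h. Each treatment's groups were apart, in opposite directions. PAP85 rose by at least 3.11 with lincomycin, since its mean in Lin_0h was at or below the first quartile, and fell by 2.93 ± 0.34 (SE) without. The adjusted p of the difference was 1.78e-06. THA1 (AT1G08630), a threonine aldolase, rose by 1.52 ± 0.31 with lincomycin and fell by 4.35 ± 0.33 without (SE), and BCB (AT5G20230), a blue copper-binding protein, rose by 2.46 ± 0.30 and fell by 2.97 ± 0.32 (SE). Their differences were 5.87 ± 0.45 (adjusted p = 1.99e-06) and 5.42 ± 0.44 (adjusted p = 2.93e-06). Of the 11 seed storage and late embryogenesis genes of a separate list, only EM1 was called, and its call was lost under 12 of the alternative settings.

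**Figure D3:**
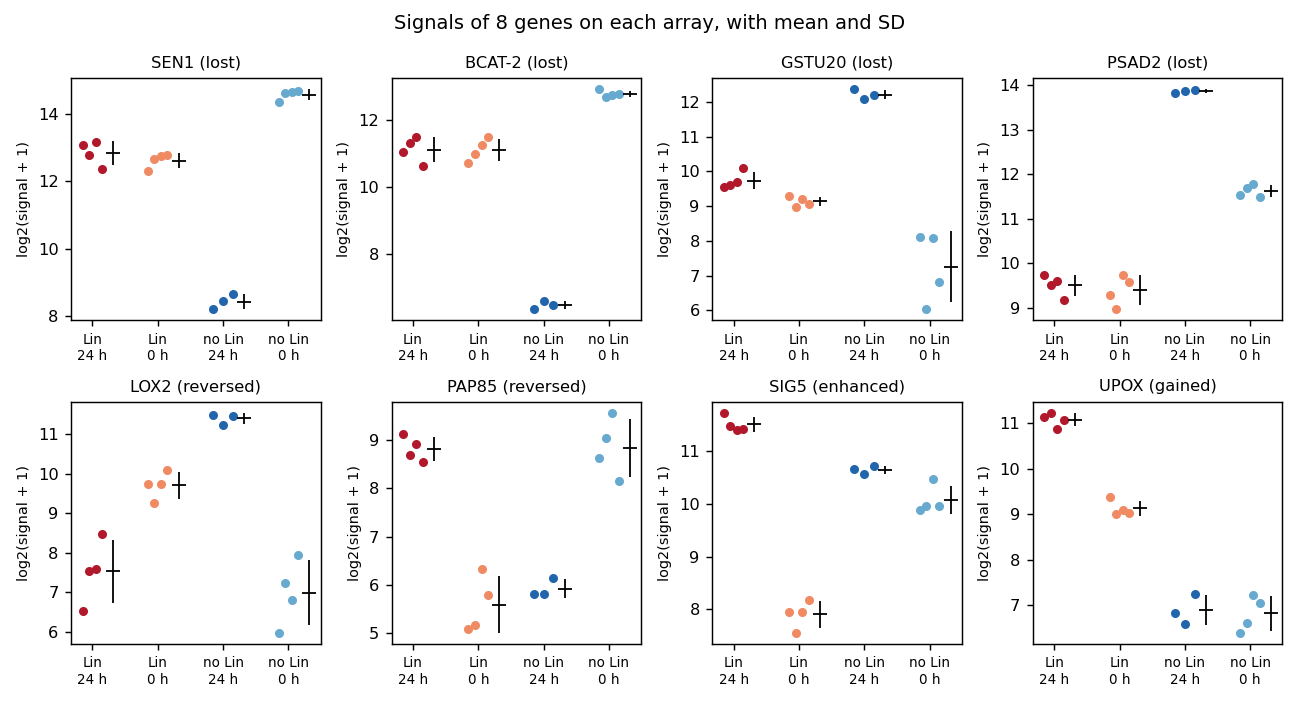
Log2(signal + 1) of 8 genes on each of the 15 arrays, in the order Lin_24h, Lin_0h, noLin_24h and noLin_0h, with the group mean and SD as black bars. The falls of SEN1 and BCAT-2 and the rises of GSTU20 and PSAD2 were called without lincomycin and not with it, although all Lin_24h arrays of GSTU20 lie above Lin_0h. LOX2 and PAP85 moved in opposite directions in the treatments, SIG5 rose more on lincomycin, and the rise of UPOX was called on lincomycin and not without it.

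Among genes that light raised without lincomycin, the lost rises ranked first by the fitted difference were AT1G13650, CRK21, AT2G25510, GSTU20 and PGL5. With dim groups set to their floor, AT1G13650, CRK21 and PGL5 had -3.61, -3.70 and -3.66, smaller in size than BCAT4 at -3.79 and MAM1 at -3.75, which follow. GSTU20 (AT1G78370), a glutathione transferase of the tau class, had log2 signals of 9.54, 9.60, 9.70 and 10.09 in Lin_24h and 9.30, 8.98, 9.20 and 9.06 in Lin_0h. It had 12.36, 12.08 and 12.19 in noLin_24h and 8.10, 6.04, 8.08 and 6.82 in noLin_0h. The 3 noLin_24h arrays lay above all others, and all Lin_24h arrays lay above all Lin_0h arrays. The response of GSTU20 was 0.60 with lincomycin (95% interval -0.20 to 1.4) and 4.95 ± 0.40 without (SE), a difference of -4.35 ± 0.54 (adjusted p = 7.2e-05). AT2G25510 had a difference of -5.16 ± 0.73 (SE, adjusted p = 0.000183), with 7.83 to 9.34 in Lin_24h and 6.82 to 9.55 in Lin_0h, against 11.61 to 11.95 in noLin_24h and 5.90 to 6.58 in noLin_0h. The rises without lincomycin of AT1G13650, CRK21 (a cysteine-rich receptor-like kinase) and PGL5 (a 6-phosphogluconolactonase) started at or below the first quartile. They are given as at least 3.49, 3.76 and 3.73 on the log2 scale, in that order of genes. AT1G13650 was at or below the first quartile in both lincomycin groups, so no response is given for it there.

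Genes of glucosinolate synthesis, which makes sulfur-containing defence compounds from amino acids, rose in light without lincomycin in 9 of 11 cases, while 2 rose and 4 fell with it. In the difference, 9 were called lower and none higher, with a median difference of -1.85. With array 4 of noLin_24h put back 6 were called lower and none higher. The median response was -0.03 with lincomycin and 2.31 without. Levels with minus without lincomycin had a median of 1.04 at 0 h and -1.18 at 24 h. MAM1 (AT5G23010), a methylthioalkylmalate synthase that lengthens the methionine chain, had log2 signals of 10.07, 9.80, 10.02 and 10.50 in Lin_24h and 9.81, 9.81, 10.08 and 9.69 in Lin_0h. It had 12.65, 12.48 and 12.58 in noLin_24h and 9.32, 7.82, 8.71 and 8.46 in noLin_0h. The lincomycin groups overlapped, and noLin_24h lay above every other array. MAM1 had a response of 0.25 with lincomycin (95% interval -0.30 to 0.79) and rose by 4.00 ± 0.27 (SE) without, a difference of -3.75 ± 0.37 (adjusted p = 1.24e-05). CYP83A1, a cytochrome P450 of the aliphatic branch and the leading weakened rise, rose by 0.87 ± 0.29 with lincomycin and by 4.84 ± 0.31 without (SE), with an adjusted p of 2.22e-05 for the difference. BCAT4, the aminotransferase of the first step, and MYB28, the pathway's transcription factor, had differences of -3.79 ± 0.48 (adjusted p = 7.7e-05) and -3.05 ± 0.25 (SE, adjusted p = 2.9e-06). The members not called were MAM3, named after its value was seen, at -0.80 ± 0.29 (SE, adjusted p = 0.058), and CYP79B3, at -0.61 ± 0.23 (adjusted p = 0.064).

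Jasmonate and salicylate genes included the largest reversed response. LOX2 (AT3G45140), the plastid lipoxygenase that begins jasmonate synthesis, had log2 signals of 6.53, 7.53, 7.58 and 8.48 in Lin_24h and 9.75, 9.26, 9.74 and 10.09 in Lin_0h. It had 11.48, 11.25 and 11.47 in noLin_24h and 5.97, 7.22, 6.79 and 7.95 in noLin_0h. All Lin_24h arrays lay below all Lin_0h arrays, and the order was the opposite without lincomycin. LOX2 fell by 2.18 ± 0.42 with lincomycin and rose by 4.42 ± 0.45 without (SE), a difference of -6.59 ± 0.62 (adjusted p = 8e-06). AOS, the allene oxide synthase that acts after LOX2, had a difference of -2.13 ± 0.27 (SE, adjusted p = 8.02e-05). SID2, the isochorismate synthase of salicylate synthesis, had one of -2.29 ± 0.21 (adjusted p = 8e-06). Both fell with lincomycin and rose without. The call of AOS was lost with array 4 of noLin_24h put back. Of 12 genes of the defence and jasmonate list, 5 were called lower and 1 higher, and the median difference was -1.03. JAZ1, a jasmonate repressor, had a difference of 0.01 ± 0.22 (SE, adjusted p = 0.983).

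Genes of DNA replication and mitosis mostly rose in light without lincomycin (15 of 17) and fell with it (13 of 17, with 2 rises). In the difference, 14 were called lower in the difference and 1 higher, and 12 were reversed. The median response was -0.58 with lincomycin and 1.09 without, for a median difference of -1.56. Levels with minus without lincomycin had a median of 0.82 at 0 h and -1.03 at 24 h. The 4 largest differences were those of MCM3 (-2.66 ± 0.31), PRL (-2.58 ± 0.26), MCM2 (-2.57 ± 0.24) and KN (-2.45 ± 0.16, SE), with adjusted p of 7.97e-07 to 3.85e-05. MCM2, MCM3 and PRL (MCM7) are parts of the replicative helicase. KN (KNOLLE, AT1G08560) is the syntaxin that builds the new cell plate.

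KN had log2 signals of 7.99, 8.02, 8.20 and 8.36 in Lin_24h and 9.17, 8.88, 9.30 and 9.14 in Lin_0h. It had 9.86, 9.68 and 9.79 in noLin_24h and 8.27, 8.29, 8.42 and 8.22 in noLin_0h. No array of one time overlapped the other time within a treatment. The call for MCM3 was lost with the 0 h arrays numbered 1 to 8. The higher one was RNR2A, a subunit of ribonucleotide reductase, at 0.71 ± 0.22 (SE, adjusted p = 0.0291), named after its value was seen. CYCB1;1, a mitotic cyclin, rose in both treatments, by 1.1 ± 0.20 with and 1.09 ± 0.21 without lincomycin (SE).

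**Figure D4:**
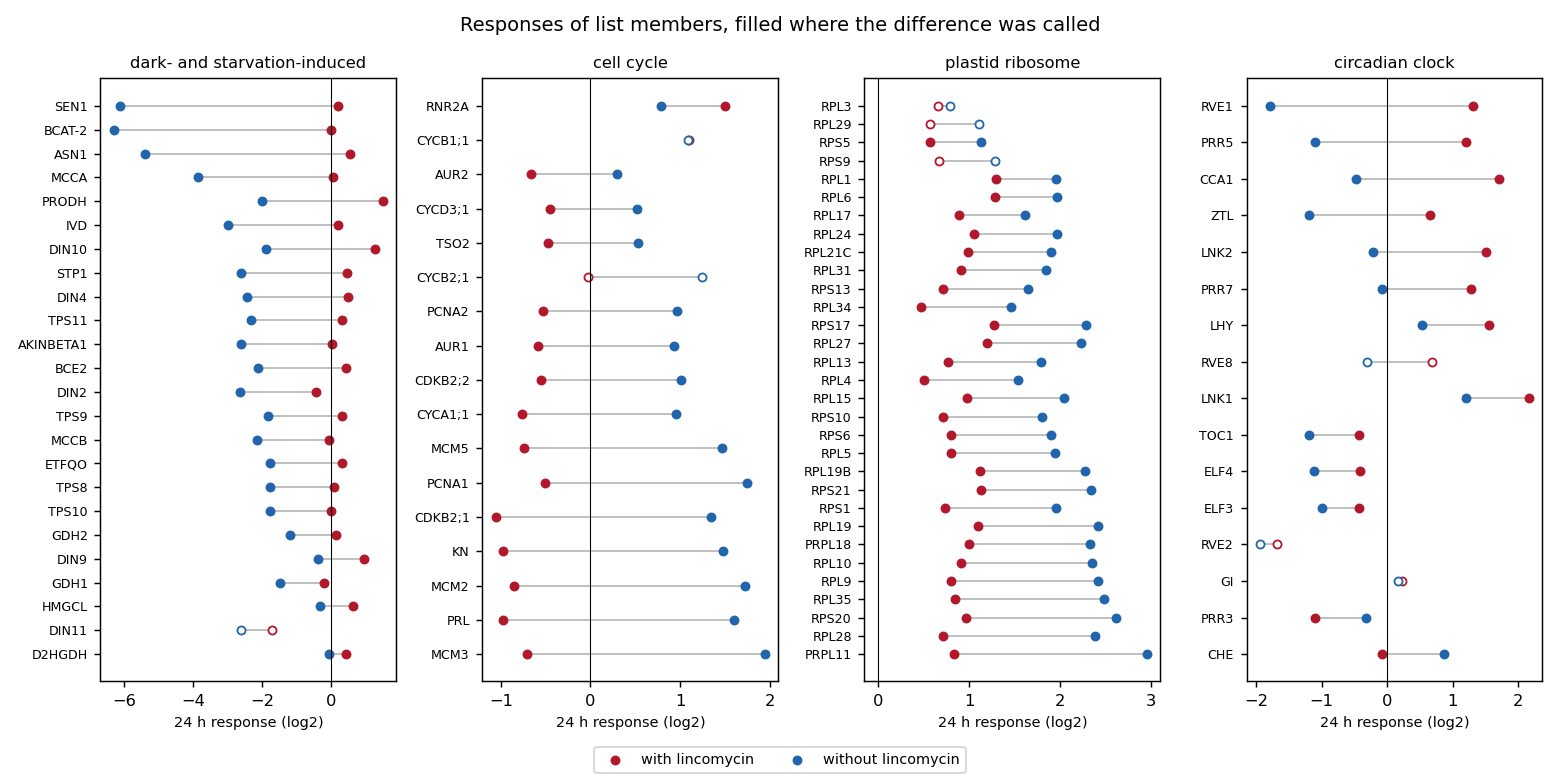
Response of each measured member of 4 gene lists to 24 h of light, with lincomycin (red) and without (blue), as log2 of the 24 h minus the 0 h group. Filled points mark genes whose difference was called, which were 23 of 24 dark- and starvation-induced genes, 15 of 17 cell cycle genes, 28 of 31 plastid ribosome genes and 13 of 16 clock genes.

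Nuclear genes for proteins of the plastid ribosome rose in light in both treatments, by less on lincomycin. All 31 measured genes were called as rises with lincomycin and all 31 without. Of these, 28 were called lower in the difference, each of them weakened, and none higher. With array 4 of noLin_24h put back 16 were called lower, and 19 with the 0 h arrays numbered 1 to 8. Their median response was 0.85 with lincomycin and 1.95 without, a median difference of -1.03. PRPL11 (AT1G32990), a protein of the large subunit, had log2 signals of 10.39, 10.32, 10.32 and 10.54 in Lin_24h and 9.52, 9.69, 9.60 and 9.43 in Lin_0h. It had 12.18, 12.44 and 12.16 in noLin_24h and 9.30, 9.36, 9.72 and 8.85 in noLin_0h. Both 0 h groups overlapped, and both treatments rose to levels that did not. PRPL11 rose by 0.83 ± 0.15 with lincomycin and by 2.95 ± 0.16 without (SE), with an adjusted p of 1.98e-05 for the difference. RPL28, RPS20 and RPL35 had differences of -1.67, -1.65 and -1.63. The 3 genes not called, of which the last 2 were named after their values were seen, were RPL3 at -0.14 (adjusted p = 0.554), RPL29 at -0.54 (adjusted p = 0.0507) and RPS9 at -0.62 (adjusted p = 0.0511).

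Genes of cytosolic ribosomal proteins, which serve the rest of the cell, had smaller medians. Of 15 measured, 8 were called lower in the difference and none higher, with a median difference of -0.49, a median response of 0.15 with lincomycin and 0.60 without. The count was 3 lower with array 4 of noLin_24h put back. RPP0A had the largest, at -1.4 ± 0.23 (SE, adjusted p = 0.000649). RPS8A was not called, at 0.16 ± 0.12 (adjusted p = 0.39).

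The photosynthesis genes of the nucleus, the usual readout of retrograde signalling, were lower on lincomycin at both times, with a median of -2.24 at 24 h and -1.48 at 0 h (log2). Of 34 genes of the photosystems and electron transport, 21 were called lower in the difference and 1 higher (PETM, a cytochrome b6f subunit, named after its value was seen). The counts with array 4 of noLin_24h put back were 13 called lower and none higher. They were 11 weakened, 6 lost, 3 reversed, 1 enhanced and 1 gained. The median response was 0.69 with lincomycin and 1.24 without. PSAD2 (AT1G03130), a ferredoxin-docking subunit of photosystem I, had log2 signals of 9.73, 9.52, 9.59 and 9.17 in Lin_24h and 9.28, 8.97, 9.73 and 9.58 in Lin_0h. It had 13.83, 13.87 and 13.90 in noLin_24h and 11.54, 11.68, 11.78 and 11.48 in noLin_0h. The lincomycin groups overlapped below both others. The response of PSAD2 was 0.11 with lincomycin (95% interval -0.24 to 0.46) and 2.24 ± 0.17 without (SE), a difference of -2.13 ± 0.24 (adjusted p = 2.9e-05). PSAH2, another photosystem I subunit, was lost too, with a difference of -2.05 ± 0.25 (SE, adjusted p = 5.63e-05).

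PSBQ2, a subunit of the oxygen-evolving complex, and PETE1, a plastocyanin that carries electrons to photosystem I, were reversed. PSBQ2 fell by 1.61 ± 0.09 with lincomycin and rose by 0.93 ± 0.10 without (SE). PETE1 fell by 0.85 ± 0.10 with it and rose by 1.44 ± 0.11 without (SE). PSBR, a photosystem II subunit, was not called (0.33 ± 0.16, SE, adjusted p = 0.15). PnsB3 and PnsL4, subunits of the NDH complex around photosystem I and among the largest weakened rises, had differences of -3.02 ± 0.26 (adjusted p = 4.31e-06) and -2.83 ± 0.20 (SE, adjusted p = 1.27e-06).

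Light-harvesting antenna genes, of which 13 of 21 listed were measured, gave a similar count. Of the 13, 8 were called lower and 1 higher, and 4 lower with array 4 of noLin_24h put back, where LHCB6 lost its call. Their median response was 0.06 with lincomycin and 1.05 without. LHCB4.3, a minor antenna protein of photosystem II, had a response of 0.09 with lincomycin (95% interval -0.28 to 0.46) and rose by 3.35 ± 0.18 (SE) without. LHCB6 had a response of -0.21 (95% interval -0.49 to 0.08) with lincomycin and a rise of 2.23 ± 0.14 (SE) without. The higher one was LHCB7, a member named after its value was seen, at 0.93 ± 0.30 (SE, adjusted p = 0.0359). LHCB2.3, of the main antenna, had lincomycin effects (levels with minus without, log2) of -4.95 at 24 h and -4.54 at 0 h, and its light response was 1.99 ± 0.29 with lincomycin and 2.41 ± 0.32 without (SE). The difference of -0.41 was not called (adjusted p = 0.55, 95% interval -1.35 to 0.53). PSBS, which dissipates excess light energy, was not called either. It rose by 1.99 ± 0.14 with and 2.23 ± 0.15 without lincomycin (SE), with a difference of -0.24 (95% interval -0.69 to 0.21), and its lincomycin effect at 24 h was -3.22.

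Of 33 genes that make chlorophyll and heme (tetrapyrroles), 18 were called lower and 1 higher (NYC1, which breaks chlorophyll b down and was named after its value was seen), with a median difference of -0.83. The counts were 10 lower and none higher with array 4 of noLin_24h put back. PORB (AT4G27440), one of the light-dependent protochlorophyllide oxidoreductases, was the only reversed one. It had log2 signals of 8.33, 8.43, 8.23 and 8.18 in Lin_24h and 10.35, 10.28, 10.61 and 10.16 in Lin_0h. It had 12.34, 12.35 and 12.49 in noLin_24h and 11.08, 11.17, 11.50 and 10.88 in noLin_0h. The 4 groups did not overlap, with Lin_24h the lowest and noLin_24h the highest. PORB fell by 2.06 ± 0.13 with lincomycin and rose by 1.23 ± 0.14 without (SE), a difference of -3.29 ± 0.19 (adjusted p = 4.12e-07). PORC, the light-induced form of that enzyme, DVR, a divinyl reductase, and GSA2, which makes the precursor aminolevulinic acid, were weakened, with differences of -2.81, -2.80 and -2.32. CHLP, which makes the phytyl tail of chlorophyll, was not called (-0.30 ± 0.11, SE, adjusted p = 0.0513).

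Of 19 carotenoid and isoprenoid genes, 8 were called lower and 1 higher, and 5 lower with array 4 of noLin_24h put back. The higher one was BCH1, a carotene hydroxylase, at 1.21 ± 0.16 (SE, adjusted p = 0.0001), named after its value was seen. DXR, of the plastid isoprenoid pathway, and PSY, phytoene synthase, had differences of -1.48 and -1.32.

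Genes of the Calvin cycle and of photorespiration split in both directions in the difference. Median lincomycin effects at 24 h and 0 h were -1.58 and -1.42 for the Calvin cycle, and -1.46 and -1.44 for photorespiration. Of 16 Calvin cycle genes, 7 were called lower and 5 higher, with a median difference of -0.21. With array 4 of noLin_24h put back none was called higher and 3 were called lower, and with the 0 h arrays numbered 1 to 8, 3 were called higher and 7 lower. The lower ones included EMB3119, a ribose-5-phosphate isomerase (-2.72 ± 0.23), PGK1, a phosphoglycerate kinase (-1.61 ± 0.15), and HCEF1, a fructose bisphosphatase (-1.4 ± 0.15, SE). The higher ones, named after their values were seen, were GAPA (0.86), RCA (0.68), FBA1 (0.67), GAPA2 (0.60) and FBA2 (0.58). GAPA and GAPA2 are glyceraldehyde phosphate dehydrogenases, RCA activates Rubisco, and FBA1 and FBA2 are aldolases.

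Of 13 photorespiration genes, 5 were called higher and 5 lower, and the median difference of -0.23 became 0.05 with quantile scaling and 0.45 with array 4 of noLin_24h put back, where 2 were called higher and 3 lower. GGT1, a peroxisomal aminotransferase, and HPR, hydroxypyruvate reductase, rose by 1.62 ± 0.09 and 1.87 ± 0.16 with lincomycin (SE). Without it their responses of 0.12 (95% interval -0.09 to 0.33) and 0.39 (95% interval 0.01 to 0.78) were not called. The lincomycin effects of GGT1 and HPR were -1.96 and -2.22 at 0 h, and -0.455 and -0.74 at 24 h. GS2, the plastid glutamine synthetase, was reversed (-1.47 ± 0.12, SE, adjusted p = 3.65e-06). CAT2, the peroxisomal catalase that removes hydrogen peroxide from photorespiration, belonged to the photoprotection list and was gained. It rose by 2.04 ± 0.10 (SE) with lincomycin and had a response of -0.18 without (95% interval -0.42 to 0.06), a difference of 2.22 ± 0.15 (adjusted p = 9.3e-07).

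Of the 18 photoprotection and antioxidant genes, CAT2 among them, 3 were called higher and 5 lower. The plastid ascorbate peroxidases TAPX and SAPX were weakened, at -1.42 ± 0.23 and -1.36 ± 0.17 (SE). FER1, an iron-storing ferritin, fell by 2.11 ± 0.10 (SE) without lincomycin and had a response of -0.20 with it (adjusted p = 0.148, 95% interval -0.40 to 0.01). ELIP1, an early light-induced protein, rose by 3.75 ± 0.21 with and 3.07 ± 0.23 without lincomycin (SE), and the difference of 0.68 was not called (adjusted p = 0.125, 95% interval 0.02 to 1.35). The list's median difference of -0.25 became 0.03 with quantile scaling, where 5 genes were called higher and 2 lower. It became 0.03 with the 0 h arrays numbered 1 to 8 (2 higher, 2 lower) and 0.22 with array 4 of noLin_24h put back (2 higher, 1 lower).

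Of 21 genes of starch and sugar metabolism, 12 were called lower and none higher, with a median response of 0.14 with lincomycin and 0.88 without. APS1, the small subunit of the enzyme that makes ADP-glucose for starch, had a response of 0.31 with lincomycin (adjusted p = 0.113, 95% interval 0.02 to 0.60) and rose by 3.29 ± 0.14 (SE) without. SEX4 and MEX1, which act in starch breakdown and maltose export, were lost with differences of -1.95 and -1.77. Their responses with lincomycin were -0.30 (95% interval -0.66 to 0.05) and -0.40 (95% interval -0.71 to -0.09). TPT, the triose phosphate exporter of the plastid, was not called (-0.07 ± 0.11, SE, adjusted p = 0.717).

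The gene expression machinery of the plastid held the largest enhanced rise. SIG5 (AT5G24120), a nuclear-encoded sigma factor that directs the plastid's bacterial-type RNA polymerase, had log2 signals of 11.73, 11.49, 11.40 and 11.42 in Lin_24h and 7.95, 7.55, 7.94 and 8.18 in Lin_0h. It had 10.67, 10.57 and 10.72 in noLin_24h and 9.89, 9.96, 10.47 and 9.97 in noLin_0h. Lin_0h lay below all other groups and Lin_24h above them. SIG5 rose by 3.60 ± 0.15 with lincomycin and by 0.58 ± 0.16 without (SE), a difference of 3.02 ± 0.22 (adjusted p = 1.62e-06). In the list of 22 plastid transcription genes, 3 were called higher and 4 lower, with a median difference of -0.28. SIG2, TRXZ, a thioredoxin of the polymerase complex, and PTAC16, a protein of the plastid chromosome, were among those lower, at -1.08, -1.37 and -1.3. With array 4 of noLin_24h put back 1 gene was called higher and 1 lower, and with the 0 h arrays numbered 1 to 8, 1 higher and 2 lower, and SIG2 and PTAC16 lost their calls in both settings.

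The plastid's own transcripts showed few called differences. Of 71 plastid-encoded genes, 7 were called lower and 1 higher (ndhK, an NDH subunit named after its value was seen). The lower count was 3 with array 4 of noLin_24h put back or with the 0 h arrays numbered 1 to 8. It was 13 with dim signals raised to the first quartile, and 14 with 46 arrays in the fit. The response with lincomycin was called for 1 of the 71, a rise, and the response without for 21, all rises. The plastid ribosomal genes rpl22, rps19 and rps3, which neighbour each other on the plastid genome, had responses of 0.20, 0.15 and 0.02 with lincomycin and rose by 1.85, 1.75 and 1.09 without.

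Other enhanced rises were FADA (AT4G27030), a plastid fatty acid desaturase, and AT3G21670. FADA rose by at least 4.42 with lincomycin, since its mean in Lin_0h was at or below the first quartile, and by 2.78 ± 0.47 (SE) without, with an adjusted p of 0.00402 for the difference. AT3G21670 rose by 3.28 ± 0.09 with and by 0.73 ± 0.10 without (SE). At 24 h their lincomycin effects of -0.85 and 0.05 were not called, against effects of -3.77 and -2.50 at 0 h. The enhanced falls AT4G18280, TUB1 (a tubulin) and WAG2 (a protein kinase) had differences of -1.72, -1.63 and -1.60. For AT4G18280 and WAG2 the call was lost with the 0 h arrays numbered 1 to 8.

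Of 30 light signalling genes, 14 were called higher and 2 lower, and 6 were enhanced. HY5, the transcription factor that promotes development in light, rose by 0.94 ± 0.18 (SE) with lincomycin and had a response of -0.49 without (adjusted p = 0.0581, 95% interval -0.92 to -0.07). Its partner HYH rose by 2.95 ± 0.11 with and by 1.04 ± 0.12 without (SE), a difference of 1.91 ± 0.16 (adjusted p = 3.46e-06). The lincomycin effect on HYH was -1.44 at 0 h and 0.47 at 24 h. RUP1, a repressor of UV-B signalling, and CGA1, a GATA factor that promotes chlorophyll synthesis, were reversed, rising with lincomycin and falling without. Their differences were 3.05 ± 0.23 (adjusted p = 2.03e-06) and 3.39 ± 0.26 (SE, adjusted p = 1.86e-06). PIF4, which represses development in light, had a lost fall with a difference of 0.64 ± 0.14 (adjusted p = 0.00485), a call lost with the 0 h arrays numbered 1 to 8. Its level was already lower on lincomycin at 0 h, by an effect of -0.90, and the effect of -0.26 at 24 h was not called.

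The 2 light signalling genes called lower were GLK1 and BBX16, both tied to chloroplast development. GLK1, an activator of photosynthesis genes, had log2 signals of 6.49 to 7.24 in Lin_24h and 7.04 to 7.37 in Lin_0h, against 9.47 to 9.99 in noLin_24h and 7.46 to 8.30 in noLin_0h. Its response was -0.50 with lincomycin (adjusted p = 0.0823, 95% interval -0.94 to -0.07) and a rise of 1.88 ± 0.22 (SE) without, a difference of -2.38 ± 0.30 (adjusted p = 6.94e-05). GLK2, its close relative, had lincomycin effects of -2.71 at 24 h and -2.48 at 0 h, and its difference of -0.23 was not called (adjusted p = 0.366, 95% interval -0.59 to 0.14). BBX16, a B-box factor, rose by 2.29 ± 0.43 (SE) without lincomycin. With lincomycin it was at or below the first quartile in both groups, so no response is given there, and its class of reversed rests on dim signals. PHOT1, a blue light receptor, was not called (0.01 ± 0.13, SE, adjusted p = 0.953).

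Of 16 clock genes, 8 rose and 4 fell in light on lincomycin, while 3 rose and 8 fell without it. In the difference, 11 were called higher and 2 lower (7 and none with the 0 h arrays numbered 1 to 8). The median response was 0.66 with lincomycin and -0.40 without, and the median lincomycin effect was -0.74 at 0 h and 0.27 at 24 h. RVE1 (AT5G17300), a MYB-type factor that links the clock to auxin, had log2 signals of 10.35, 10.10, 9.91 and 9.67 in Lin_24h and 8.47, 8.52, 8.79 and 9.02 in Lin_0h. It had 9.08, 9.12 and 9.18 in noLin_24h and 10.99, 10.87, 10.97 and 10.80 in noLin_0h. The times did not overlap in either treatment and moved in opposite directions. RVE1 rose by 1.3 ± 0.15 with lincomycin and fell by 1.78 ± 0.16 without (SE), a difference of 3.08 ± 0.22 (adjusted p = 1.27e-06). PRR5, CCA1 and ZTL, a pseudo-response regulator, a morning-phased repressor and a blue light receptor of the clock, were reversed too, with differences of 2.31, 2.18 and 1.84. The lower ones, named after their values were seen, were PRR3 (-0.77) and CHE (-0.94). RVE2 fell by 1.68 ± 0.11 with and by 1.94 ± 0.12 without lincomycin (SE), and its difference was not called (adjusted p = 0.311).

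Flavonoid genes, which make ultraviolet screens and anthocyanins, rose with lincomycin in 15 of 23 cases and without it in 17. No fall was called in either treatment. In the difference, 6 were called lower and 2 higher, and the median response was 1.64 with lincomycin and 1.55 without. With the 0 h arrays numbered 1 to 8, 1 was called lower and 1 higher, and with array 4 of noLin_24h put back 3 lower and none higher. CHS, chalcone synthase, had log2 signals of 13.66, 13.63, 13.71 and 13.70 in Lin_24h and 10.13, 10.05, 9.78 and 10.71 in Lin_0h. It had 13.12, 13.49 and 13.10 in noLin_24h and 7.29, 6.19, 7.73 and 6.45 in noLin_0h. All 24 h arrays lay above all 0 h arrays, and noLin_0h was the lowest group. CHS rose by 3.51 ± 0.30 with lincomycin and by 6.32 ± 0.32 without (SE). The difference of -2.81 ± 0.43 (adjusted p = 0.000356) came with a level 3.25 higher on lincomycin at 0 h, and its call was lost with the 0 h arrays numbered 1 to 8 and with array 4 of noLin_24h put back. PAP1, a MYB activator of anthocyanin genes, had a response of -0.05 with lincomycin (adjusted p = 0.936) and rose by at least 2.24 without, having started at or below the first quartile.

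Of 14 genes of alternative respiration and mitochondrial stress, 5 were called higher in the difference and none lower, with a median difference of 0.40 (3 higher with array 4 of noLin_24h put back or with the 0 h arrays numbered 1 to 8). UPOX (AT2G21640), which is up-regulated by oxidative stress, had log2 signals of 11.14, 11.22, 10.88 and 11.08 in Lin_24h and 9.38, 9.01, 9.09 and 9.04 in Lin_0h. It had 6.83, 6.59 and 7.24 in noLin_24h and 6.39, 6.62, 7.22 and 7.05 in noLin_0h. Both lincomycin groups lay above all arrays without it, and only they were apart from each other. UPOX rose by 1.95 ± 0.19 (SE) with lincomycin and had a response of 0.06 without (95% interval -0.37 to 0.50), a difference of 1.89 ± 0.28 (adjusted p = 0.000236). NAC013, a factor of mitochondrial retrograde signalling, was reversed at 1.32 ± 0.16 (SE, adjusted p = 4.61e-05). GPT2, a glucose phosphate transporter that acclimating leaves induce, was not called (0.05 ± 0.68, SE, 95% interval -1.42 to 1.52).

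The remaining gained responses with the largest differences were spread over other functions. AT1G20120 had log2 signals of 8.92 to 9.53 in Lin_24h and was at or below the first quartile in the other 3 groups, so its rise with lincomycin was at least 3.45. NAC103, a transcription factor of the unfolded protein response, rose by 1.67 ± 0.39 (SE) with lincomycin and was at or below the first quartile in both groups without it. AT2G36630 rose by 2.47 ± 0.17 (SE) with lincomycin and had a response of 0.10 without (95% interval -0.30 to 0.51). The gained falls AT1G12845, AT5G38910 and CYP71A12, a cytochrome P450 of camalexin synthesis, had differences of -2.60, -2.53 and -2.50, with adjusted p of 5.11e-05, 0.000154 and 0.0022. AT2G34620, a reversed rise, fell by 0.94 ± 0.17 with lincomycin and rose by 3.40 ± 0.19 without (SE).

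The same difference at 4 h, computed with the same 0 h arrays, was called for 4464 probe sets (19.6%), 2003 of them higher (8.81%) and 2461 lower (10.8%). Whether the lincomycin dependence changed between 4 and 24 h was tested by (Lin_24h minus Lin_4h) minus (noLin_24h minus noLin_4h), which uses no 0 h array. This contrast was called for 4299 probe sets (18.9%), 2402 of them higher (10.6%) and 1897 lower (8.34%) at 24 h. In the plastid ribosome list all 31 genes were called lower at 24 h than at 4 h (8.34% over all probe sets), with median differences of 0.04 at 4 h and -1.03 at 24 h. Dark- and starvation-induced genes had medians of 1.16 at 4 h and 2.39 at 24 h, and 19 of 24 were called higher at 24 h. For the photosystem list, 26 of 34 were called lower at 24 h, and the medians were 0.02 and -0.67. For glucosinolate genes 10 of 11 were called lower and for cell cycle genes 11 of 17.

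Clock genes had medians of 0.92 at 4 h and 0.97 at 24 h, with 3 of 16 called higher and 2 lower at 24 h. SEN1 had a difference of 2.08 at 4 h and 6.35 at 24 h (test between the times, adjusted p = 9.29e-09). GLK1 had -2.39 and -2.38 (adjusted p = 0.99), RVE1 3.32 and 3.08 (adjusted p = 0.498) and LOX2 -5.17 and -6.59 (adjusted p = 0.104). For KN it was -0.11 at 4 h (adjusted p = 0.717) and -2.45 at 24 h, and the test between the times gave an adjusted p of 3.98e-08.

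**Figure D5:**
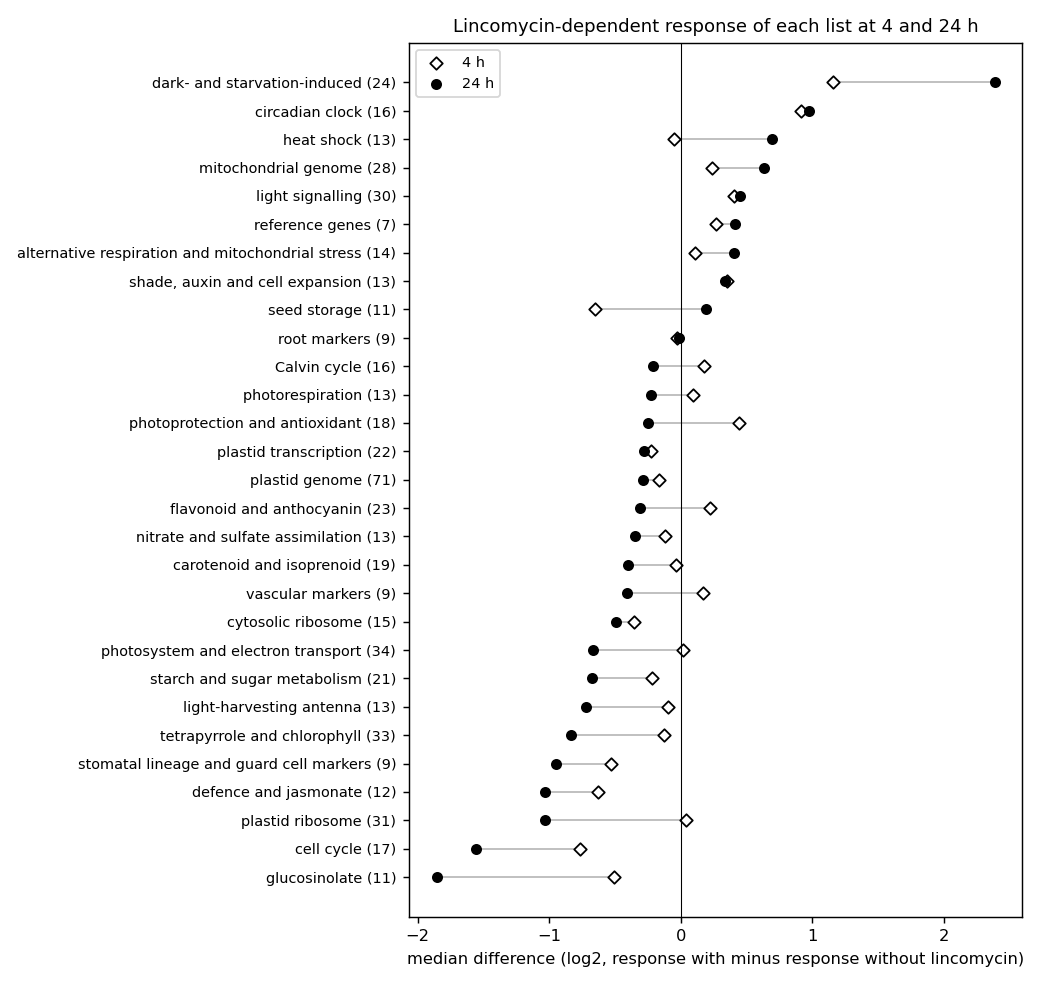
Median difference of each gene list, response with minus response without lincomycin (log2), at 4 h (open diamonds) and at 24 h (filled points), with the number of genes measured in brackets. Both times share the 0 h arrays. Plastid ribosome genes had medians of 0.04 at 4 h and -1.03 at 24 h, while clock genes had 0.92 and 0.97.

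Markers of single cell types were read alongside. The 9 root markers summed to linear signals of 28631 to 33366 in Lin_24h and 37147 to 40680 in Lin_0h, against 29599 to 34558 in noLin_24h and 41352 to 45324 in noLin_0h. In the difference, 2 of them were called lower (RCI3 and EXPA18) and none higher, and PYK10, the most abundant, stood at 0.07 ± 0.12 (SE, adjusted p = 0.727). RCI3 lost its call with array 4 of noLin_24h put back and with the 0 h arrays numbered 1 to 8. The 9 stomatal markers summed to 1344 to 1545 in Lin_24h and 1208 to 1339 in Lin_0h, against 2373 to 2556 in noLin_24h and 1329 to 1650 in noLin_0h. Only noLin_24h stood apart. Of these, 4 were called lower, each with a lost rise, KAT1 (a guard cell potassium channel), EPF1, TMM and MUTE. MUTE was at or below the first quartile in every group, and the calls of EPF1 and TMM were lost under 13 of the alternative settings each. The 9 vascular markers summed to 4207 to 5318 in Lin_24h and 7445 to 8254 in Lin_0h, against 4200 to 4427 in noLin_24h and 5423 to 5688 in noLin_0h, with 2 called lower. No vascular marker was called with array 4 of noLin_24h put back or with the 0 h arrays numbered 1 to 8. The defining green-cell gene LHCB3 had log2 signals of 11.02 to 11.25 in Lin_24h and 11.26 to 11.63 in Lin_0h, against 14.60 to 14.64 in noLin_24h and 13.38 to 13.81 in noLin_0h. The part of these cell types in the gene lists' differences was not tested.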

How the data were processed

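Each sample of whole Arabidopsis seedlings gave 1 ATH1 array, and 15 of 47 arrays entered this comparison. The deposited value table holds a linear signal intensity per probe set. MAS5 and GCRMA are listed, per the submitters' processing notes, but neither is tied to a table. The 2% trimmed means of the 15 arrays, near 500 (500.04 to 500.05), were computed from the values. The authors also deposited group comparisons whose columns, per the file headers, are log ratios (taken to be log2, since no base is given) and p-values. Only the signs of those ratios were used.

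Signals were transformed to log2(signal + 1), with no further normalization. R 4.3.3 with limma 3.58.1 (lmFit, eBayes, two-sided) fitted 4 group means on the 15 arrays, and 6 on 23 arrays for the comparison with 4 h. Adjusted p-values are Benjamini-Hochberg values over 22746 probe sets. Python 3.11.15, pandas 2.3.3, numpy 2.4.6 and matplotlib 3.10.9 did the rest. Scripts were tested on simulated data. The median SE of the difference was 0.26. Of the probe sets, 21463 had 1 gene, 503 several, 712 none and 68 conflicting annotations. Names came from the TAIR10.1 annotation.

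Where a group averaged no more than the first quartile of its arrays (log2, arrays averaged), its level is only a bound. That bound sets the brighter group's mean against the averaged first quartile of the dim group's arrays. Differences given with dim groups set to their floor come from a fit with each array's signals raised to at least its first quartile. The 0 h arrays numbered 5 to 8 were used because spike-in controls of the other 0 h arrays differed. The dap controls averaged 3.42 to 4.34 (log2) in noLin_0h arrays 1 to 4 and 8.47 to 8.84 in arrays 5 to 8. In Lin_0h they averaged 9.00 to 9.21 and 8.23 to 8.50. This shift differed between the treatments, so with the 0 h arrays numbered 1 to 8 it cannot be told apart from the lincomycin comparison. Same-numbered arrays of the treatments did not deviate together (correlations of -0.016 to 0.018), so numbers were not treated as pairs.

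Members and gene lists were chosen with earlier results of these data known. Named genes are the 5 largest differences among lost rises and lost falls and the 3 largest in each direction of the other classes, whose brightest group mean reached the median of such means. To these were added, of each list, up to 4 called members with the largest differences and the brightest member not called, and 16 fixed genes of light and plastid signalling. The alternatives tried were quantile scaling, a pseudocount of 16, raised or filtered dim signals, more arrays, a replicate block, a variance trend and leaving out each array.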

Additional observations from a re-analysis of the deposited data

Results flagged for a closer look

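The light responses with and without lincomycin differed for 6383 probe sets by a test of the difference itself, and for 712 of these both responses were called with opposite signs. The difference itself differed between 24 h and 4 h for 4299 probe sets. Outside the comparison, array 4 of noLin_24h had a first quartile of 162.7632 (linear signal), above the 40.5 to 54.4 of the 15 arrays used.

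Among the named genes, 27 of 513 groups of 4 arrays (5.26%) held 1 array far from the other 3, where chance gives about 5%. The values are log2 signals. In Lin_24h, array 1 stood apart for IAA1 (8.78), array 2 for PSAH2 (10.61) and PRL (7.51), array 3 for GLK2 (8.08), PDTPI (10.72) and AOS (6.47), and array 4 for RUP1 (9.04), PHOT1 (11.26) and ACT2 (12.84). In Lin_0h, array 5 stood apart for SEX4 (9.55), array 7 for GGT1 (12.13), and array 8 for PGL5 (6.82), CYP83A1 (8.92), AT1G19530 (12.10), RPL35 (9.25) and EXPA8 (10.86). In noLin_0h, array 5 stood apart for SEN1 (14.34), EMB3119 (9.57), DXR (9.64) and COBL4 (6.89), and array 7 for SIG5 (10.47) and ATMG00150 (4.18). Array 8 of noLin_0h did so for AT1G13650 (4.63), LHCB6 (11.83), NRT1.1 (11.51), JAZ1 (9.85) and STOMAGEN (9.65).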

How the results depend on the processing

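Putting array 4 of noLin_24h back gave 3296 called probe sets, 1554 higher and 1742 lower, with 421 weakened, 254 reversed, 58 enhanced, 364 gained and 109 with neither response called, and 2344 called between 24 h and 4 h. It moved the median of all probe sets to -0.18. With the 0 h arrays numbered 1 to 8, 2185 were called higher, 379 were reversed and 91 enhanced, and ATMG01360 turned to -0.4906. The cause was not tested. Quantile scaling shared 5819 calls with the reported ones. Leaving out each array in turn gave 5532 to 6346 called, 2855 to 3238 higher and 2677 to 3108 lower, with 2604 to 3138 lost, 1138 to 1367 weakened, 562 to 733 reversed, 124 to 174 enhanced, 743 to 880 gained and 161 to 194 with neither, and 3572 to 4104 between 24 h and 4 h. With a replicate block 4693 were called, 4510 of them shared, and 3053 between 24 h and 4 h. The numbers do not pair the arrays, and with the block the responses themselves could not be estimated, so no classes were formed. Calls made again under any of these settings kept their direction. The calls of HSP21, COBL4 and ATMG01360 were lost in 16 settings each, and that of matK in 14. The number of arrays limits the precision, and noLin_24h has only 3.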

Other observations

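Of 13 sulfate and nitrate genes, 7 were called lower and 1 higher in the difference, with a median of -0.34. With array 4 of noLin_24h put back 1 was called lower and none higher, the median was -0.03, and APR2, APR3 and NRT1.1 lost their calls. APR1, APR2 and APR3, which reduce activated sulfate, had differences of -2.74, -1.46 and -1.04, and NRT1.1, a nitrate transporter, -1.58. NIA1, a nitrate reductase, was higher at 0.84. Of 13 heat shock genes, 4 were called higher and 3 lower, and 1 and 1 with the 0 h arrays numbered 1 to 8. With dim signals raised to the first quartile 5 were called higher and 1 lower. With 46 arrays in the fit 5 were called higher and none lower. HSFA2, a heat shock factor, had 2.16 and HSP90.1, a chaperone, 1.28, while the small heat shock proteins HSP21 and HSP18.2 had -2.61 and -1.82. The calls of HSFA2, HSP18.2 and HSP21 were lost under 5, 14 and 16 of the alternative settings. Raised dim signals were among these settings for each of the 3 genes, so their values rest on dim signals.

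Of 13 shade, auxin and cell expansion genes, 2 were called higher and 3 lower. With array 4 of noLin_24h put back 1 was called higher and 1 lower, and the median difference of 0.34 became -0.04. The expansins EXPA8 and EXPA11, which loosen cell walls, had -1.72 and -1.22. EXPA8 lost its call with array 4 put back and EXPA11 with the 0 h arrays numbered 1 to 8. Of 28 genes of the mitochondrial genome, 4 were called higher and none lower, and the median difference of 0.63 became -0.27 with array 4 of noLin_24h put back, where none was called. Of 7 genes often used as references, the actins ACT2 (1.19) and ACT8 (0.88) were called higher, and ACT8 lost its call with array 4 put back.

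In the authors' deposited table, the difference of the log ratios had the same sign as the difference found here for 131 of 137 named genes called, and for 5748 of 6029 called probe sets (95.3%). The authors' ratios come from the same series, and only genes already called here were counted, so this is no independent check.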
